A study of Mus musculus with 24 samples.

Results

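The 9 mouse genes described here across liver and fat are serpins of clade A: the 5 Serpina1 paralogs Serpina1a, Serpina1b, Serpina1c, Serpina1d and Serpina1e, then Serpina3k, Serpina3m and Serpina3n, and Serpina6. They were chosen by name, with liver values of these data known, and make up 9 of the 54532 genes in the deposited table, where 29 symbols belong to clade A. The study concerned mitochondrial magnesium and its role in the metabolic response to an obesogenic diet. It used wild-type mice (WT) and mice with a knockout of Mrs2 (KO), which encodes the channel for magnesium entry into mitochondria. From 13 weeks of age the mice ate chow or a Western diet (WD) for 52 weeks, and RNA was taken from powder of the whole liver (50 mg) or of whole inguinal white adipose tissue (iWAT, 100 mg), freed of its lymph nodes. The 4 groups in each tissue were WT on chow, KO on chow, WT on WD and KO on WD, with 3 mice per group and 24 libraries in all. The sources used here do not give how the knockout was made or the strain and sex of the mice.

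Levels are FPKM, fragments per kilobase of gene and per M fragments, in the authors' own scaling. Recovered reads numbered 14.7 to 19.5 M per liver library and 15.4 to 20.4 M per iWAT library. Mrs2 separated the labels in 3 of 4 settings. Its level in chow livers was 5.87 to 6.50 FPKM in WT and 3.90 to 4.47 FPKM in KO, and in iWAT every KO library lay below every WT library on both diets. In WD livers it did not separate them: its level was 5.10, 4.10 and 5.11 FPKM under the WT label and 4.10, 5.22 and 4.21 FPKM under the KO label. WD livers are therefore named below by their labels, and WT or KO means the label in every diet contrast of the liver. Hepatocyte markers were high in all 12 livers. Transcripts of pancreas stood out in KO chow liver 1 and WT WD liver 2, with summed acinar markers of 2231 and 1612 FPKM against at most 1.09 FPKM in the other 10 livers. Skeletal muscle transcripts reached 215 FPKM in WT chow liver 3 and 100.1 FPKM in KO WD liver 2, and the main counts are also given without these 4 livers.

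Serpins are inhibitors that trap a protease: an exposed reactive centre loop is offered as bait, is cleaved, and folds into the body of the serpin with the protease still attached. The sequence of the loop sets which protease is caught. Serpina1 genes encode alpha-1-antitrypsin, an abundant plasma protein that hepatocytes secrete and whose classic target is neutrophil elastase. Serpina3 genes encode relatives of antichymotrypsin, of which Serpina3n is known as an acute phase gene in many tissues and Serpina3k binds tissue kallikrein. Serpina6 encodes corticosteroid-binding globulin, which has the serpin fold but carries cortisol or corticosterone instead of inhibiting a protease. People have single SERPINA1 and SERPINA3 genes, whereas mice have several copies of each.

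The loop is where these near copies differ most, so its coding bases are shown first. They lie in exon 5 of 5 of each gene on chromosome 12 (mm10, GENCODE vM21), are printed 5′ to 3′ on the coding strand, and run from the conserved hinge to just before the distal loop motif. For the Serpina1 genes, on the minus strand, the stretch holds 66 bases (codons 363 to 384), and capitals mark bases not shared by at least 3 of the 5 paralogs.
Serpina1a, chr12:103853765-103853830: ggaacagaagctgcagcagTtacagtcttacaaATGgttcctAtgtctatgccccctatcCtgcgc
Serpina1b, chr12:103728332-103728397: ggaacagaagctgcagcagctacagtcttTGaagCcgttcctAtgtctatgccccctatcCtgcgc
Serpina1c, chr12:103895102-103895167: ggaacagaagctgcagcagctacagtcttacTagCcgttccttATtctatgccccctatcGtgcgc
Serpina1d, chr12:103763770-103763835: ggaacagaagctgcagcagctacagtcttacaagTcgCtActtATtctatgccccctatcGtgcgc
Serpina1e, chr12:103947108-103947173: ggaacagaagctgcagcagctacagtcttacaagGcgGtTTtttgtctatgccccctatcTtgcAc

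Among the 5 Serpina1 genes 15 of the 66 loop positions varied (22.7%), against 71 of 1173 positions (6.1%) in the rest of the coding sequence. Each encodes 413 codons, and any pair shared 96.3% to 98.5% of its coding bases. This closeness limits how reads can be placed. Of all stretches of 150 bases (the read length) in the transcripts, 49.5% were unique to Serpina1a, 49.5% to Serpina1c, 76.7% to Serpina1d, 83.6% to Serpina1b and 92.4% to Serpina1e. The sources used here do not give how reads matching several copies were counted. The split among the 5 paralogs is therefore uncertain, most of all for Serpina1a and Serpina1c, and the sum of the 5 is given as well. Gm8893, which is not in the sum, also shares such stretches with each of the 5, so the sum can be affected too. Serpina1b spans 103728156 to 103830373 and covers Serpina1d (103763594 to 103773592) on the same strand.

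The Serpina3 loops lie on the plus strand of the same chromosome, and capitals mark the part after the first 9 codons, which the 3 genes share in translation.
Serpina3k, chr12:104345269-104345337: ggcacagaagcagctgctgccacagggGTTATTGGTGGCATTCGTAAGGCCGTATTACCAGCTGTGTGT
Serpina3m, chr12:104393769-104393843: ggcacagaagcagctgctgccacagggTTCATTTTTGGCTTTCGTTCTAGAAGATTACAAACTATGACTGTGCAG
Serpina3n, chr12:104413448-104413522: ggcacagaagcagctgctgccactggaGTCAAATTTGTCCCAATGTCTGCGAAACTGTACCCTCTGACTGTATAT
After that shared hinge the 3 sequences part. Over the whole coding sequence they shared 82.7% to 91.0% of their bases with each other and 55.7% to 58.4% with the Serpina1 genes. Between 99.7% and 100.0% of their stretches of 150 bases were unique. Serpina3k (104338486 to 104346144) and Serpina3m (104338486 to 104394257) are annotated from the same start and share 60 exonic bases. Serpina6 (103646630 to 103657212, minus strand) shared 53.4% to 55.3% of its coding bases with the other 8 and lacked the distal loop motif used to find the loop.

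In liver the 9 genes fell into an abundant and a moderate set. By mean over the 12 livers Serpina3k ranked 16th of all genes, Serpina1e ranked 19th, Serpina1b 29th, Serpina1d 38th, Serpina1a 56th and Serpina1c 81st, whereas Serpina3n, Serpina3m and Serpina6 ranked 209th, 230th and 262nd. Together the 9 genes took 2.59% ± 0.531 (SD, n = 3) of the reads in WT chow livers, 2.49% ± 0.250 in KO chow livers, 1.03% ± 0.121 in WD livers labelled WT and 1.95% ± 0.320 in WD livers labelled KO. In WT chow livers the order of mean FPKM was Serpina1e, Serpina3k, Serpina1b, Serpina1d, Serpina1a, Serpina1c, Serpina6, Serpina3m and Serpina3n. The ranges of the first 5 overlapped from each to the next, as did those of the last 3, while Serpina1c stood clear on both sides. In WD livers labelled WT, Serpina1e fell from the first place to the fifth, behind Serpina1b, Serpina3k, Serpina1d and Serpina1a, and its range overlapped that of Serpina1a. Serpina3k led in KO chow livers and in WD livers labelled KO, with ranges overlapping those of Serpina1e on chow and standing above Serpina1b on WD.

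**Figure D1:**
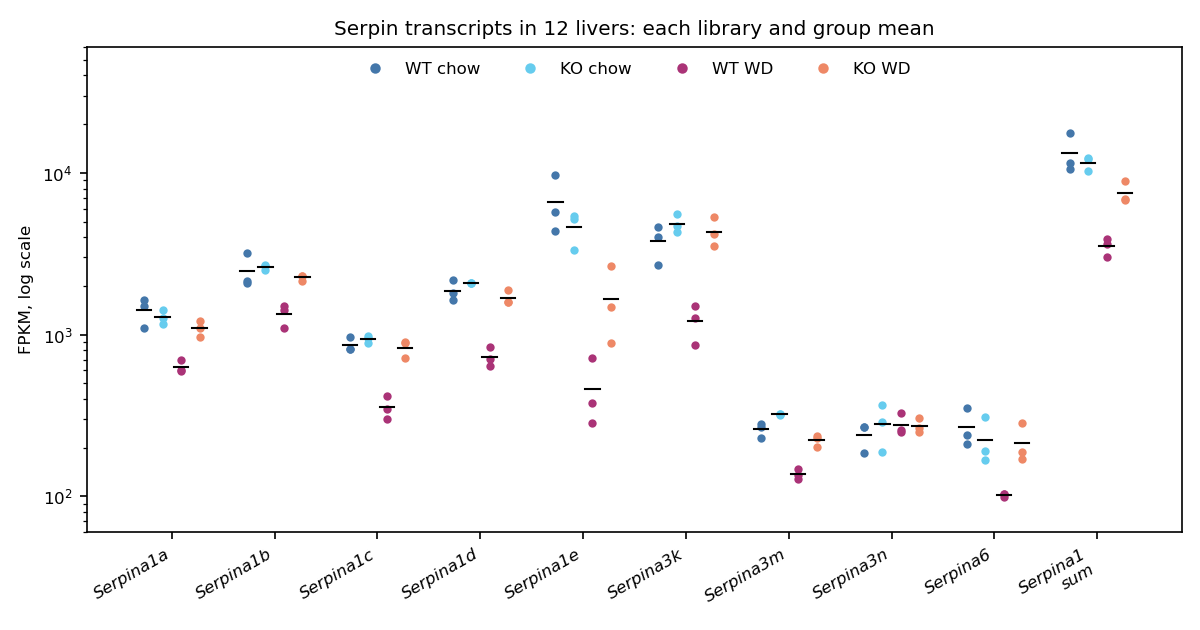
Level of each of the 9 genes and of the Serpina1 sum in the 12 livers, in FPKM on a log axis. Points are single livers, bars are the means of 3 livers, and the 4 groups are set side by side. In WD livers labelled WT, 8 genes and the sum lie below every liver of the other groups, while Serpina3n stays between 184 and 370 FPKM throughout.

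Serpina1e was the paralog with the widest swings, 34.3-fold from the lowest to the highest liver. WT chow livers held 9710, 5697 and 4370 FPKM of it (mean 6593 ± 2780, SD, n = 3), and KO chow livers held 5392, 3357 and 5150 FPKM (4633 ± 1112). WD livers labelled WT held 377, 283 and 718 FPKM (460 ± 229), a mean 14.3-fold below that on chow with no overlap. WD livers labelled KO held 2652, 1475 and 887 FPKM (1671 ± 899), all above those labelled WT and all below the KO livers on chow. Replicates spread more for Serpina1e than for the other paralogs in each group, with a coefficient of variation from 24.0% to 53.8%.

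The other 4 paralogs moved less and more evenly. Serpina1b, the most abundant of them, held 3197, 2144 and 2088 FPKM in WT chow livers and 2520, 2708 and 2643 FPKM in KO chow livers. It stood at 1094, 1513 and 1419 FPKM in WD livers labelled WT and at 2304, 2159 and 2311 FPKM in those labelled KO, so the WD groups did not overlap and the chow groups did. Serpina1d held 2164, 1626 and 1815 FPKM in WT chow livers, against 2087, 2082 and 2080 FPKM in KO chow livers. On WD it held 642, 840 and 702 FPKM in livers labelled WT and 1894, 1590 and 1586 FPKM in livers labelled KO, a mean 2.32-fold higher.

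Serpina1a and Serpina1c are the pair whose reads are hardest to place. Serpina1a held 1644, 1096 and 1500.0 FPKM in WT chow livers and 1425, 1159 and 1262 FPKM in KO chow livers. On WD it held 595, 600.1 and 700.4 FPKM under the WT label and 1216, 963 and 1099 FPKM under the KO label. Serpina1c was the least abundant paralog on chow, with 810.0, 970.4 and 815 FPKM in WT and 887, 947 and 979 FPKM in KO livers. On WD it held 300, 418 and 346 FPKM under the WT label and 882, 716 and 897 FPKM under the KO label. For both genes the 3 WD livers labelled WT were the lowest of all 12.

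Summed over the 5 paralogs, Serpina1 reached 17525, 11534 and 10587 FPKM in WT chow livers (13216 ± 3762, SD, n = 3) and 12312, 10253 and 12112 FPKM in KO chow livers (11559 ± 1135). On WD the sum was 3008, 3653 and 3886 FPKM under the WT label (3516 ± 455) and 8947, 6903 and 6779 FPKM under the KO label (7543 ± 1218). The log2 ratio of the group means was -0.19 for KO over WT on chow, where the groups overlapped, and 1.10 for the KO label over the WT label on WD, where they did not. For WD over chow it was -1.91 under the WT label and -0.62 under the KO label. Scaling to total reads instead of the authors' factors brought the WD contrast of the labels to 0.78, and quantile normalization to 0.47. The chow ratio turned to 0.06 without WT chow liver 1. Without Serpina1e the sum was 6623 ± 1050 FPKM in WT chow livers, 6926 ± 33.9 in KO chow livers, 3056 ± 382 in WD livers labelled WT and 5872 ± 435 in those labelled KO. The log2 ratio on WD was then 0.94 for the labels, and -1.12 for WD over chow under the WT label.

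The make-up of the Serpina1 pool differed with diet. Serpina1e supplied 55.4%, 49.4% and 41.3% of the sum in WT chow livers and 43.8%, 32.7% and 42.5% in KO chow livers. On WD its share was 12.6%, 7.75% and 18.5% under the WT label, below every chow liver, and 29.6%, 21.4% and 13.1% under the KO label. The ranges of the 2 labels on WD overlapped. By mean Serpina1b was the leading paralog on WD under both labels, although Serpina1e exceeded it in KO WD liver 1, with a mean Serpina1b share of 38.1% ± 2.87 (SD, n = 3) under the WT label and 30.4% ± 4.24 under the KO label, against 18.9% in WT and 22.9% in KO livers on chow. Shares within the sum do not depend on the scaling of a library, though they do rest on how reads were split among the copies.

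**Figure D2:**
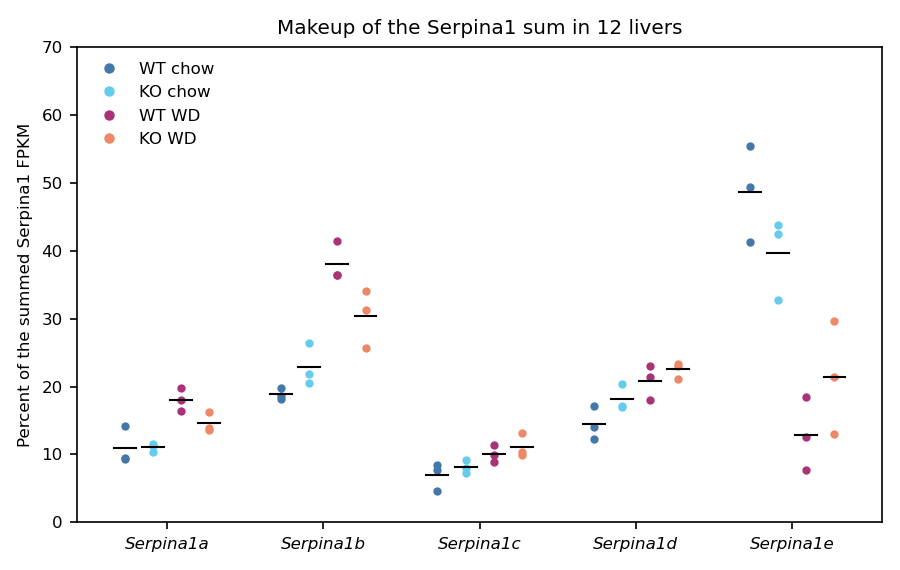
Share of each Serpina1 paralog in the summed Serpina1 FPKM of a liver, in percent, by group, with points for single livers and bars for means of 3. Serpina1e supplies 32.7% to 55.4% in chow livers and 7.75% to 29.6% in WD livers, while Serpina1b leads by mean on WD.

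Serpina3k, the kallikrein-binding member, was the second strongest mover. It held 3991, 4601 and 2709 FPKM in WT chow livers (3767 ± 966, SD, n = 3) and 4671, 4288 and 5604 FPKM in KO chow livers (4854 ± 677). On WD it held 858, 1508 and 1271 FPKM under the WT label (1212 ± 329) and 5301, 3514 and 4187 FPKM under the KO label (4334 ± 902). The WD livers labelled KO thus lay inside the range of the chow livers, and the 3 labelled WT lay below all others, 3.58-fold under the KO label by mean. Serpina3m, its neighbour with the shared start, was far less abundant. It held 269, 281 and 230 FPKM in WT and 318, 324 and 321 FPKM in KO chow livers, then 136, 148 and 128 FPKM under the WT label and 203, 235 and 229 FPKM under the KO label on WD. For Serpina3m the WD livers labelled KO lay below every KO chow liver, and it was the only member whose chow groups did not overlap.

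Serpina3n did not follow the others. It held 269, 270 and 184 FPKM in WT and 370, 189 and 286 FPKM in KO chow livers. On WD it held 256, 250 and 329 FPKM under the WT label and 263, 306 and 248 FPKM under the KO label. All 4 groups overlapped. Serpina6, the corticosteroid carrier, held 241, 210 and 353 FPKM in WT and 191, 310.1 and 167 FPKM in KO chow livers. It was narrow and low in WD livers labelled WT, at 99.1, 104.0 and 103 FPKM, and wider under the KO label, at 170.3, 282 and 188 FPKM. The 3 WD livers labelled WT were again below all others.

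For KO against WT on chow, limma called none of the 9 genes at an adjusted p under 0.05, against 0.0% of the 14019 liver genes tested. One member, Serpina3m, had an unadjusted p under 0.05 by limma, edgeR and DESeq2, and neither edgeR nor DESeq2 called any. Without the 4 livers that held pancreas or muscle transcripts none had such a p. Fold changes on the log2(FPKM + 1) scale ran from -0.46 ± 0.46 (SE) for Serpina1e to 0.39 ± 0.26 for Serpina3k. Serpina3m stood 0.31 ± 0.11 higher, and all KO livers lay above all WT livers for it alone, 1 of 9 genes, where 4.59% of all genes showed that order. The median over the 9 genes was 0.12, beside 0.00 over all genes.

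The members had been chosen with liver values in view, so all their liver contrasts are given as a description and support nothing. This holds above all between the labels on WD. Of the 9, 8 stood higher under the KO label and were called higher, as were 10.6% of all liver genes. For the same 8, all livers labelled KO lay above all those labelled WT, as for 25.4% of all genes. The log2 fold change was 1.86 ± 0.26 (SE) for Serpina3k and 1.83 ± 0.46 for Serpina1e. Serpina1c followed at 1.23 ± 0.15, Serpina1d at 1.22 ± 0.15 and Serpina6 at 1.03 ± 0.27. The smallest were 0.79 ± 0.17 for Serpina1a, 0.76 ± 0.18 for Serpina1b and 0.69 ± 0.11 for Serpina3m, with Serpina3n at -0.02 ± 0.24. The members' median was 1.02, beside 0.07 over all genes. The authors' deposited table of the same contrast holds log2 fold changes from 0.66 for Serpina3m to 1.82 for Serpina1e for the same 8 genes.

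The size of these differences rested partly on scaling. The deposited FPKM carry a library factor that was 1.02 ± 0.0465 (SD, n = 3) of the recovered reads in WD livers labelled WT and 0.781 to 0.816 by mean in the other groups. Scaled to total recovered reads, the WD contrast of the labels was 1.53 for Serpina3k, 1.50 for Serpina1e, 0.91 for Serpina1c, 0.89 for Serpina1d and 0.70 for Serpina6. It was 0.46 for Serpina1a, 0.44 for Serpina1b, 0.37 for Serpina3m and -0.35 for Serpina3n. The same step moved the median of all genes from 0.07 to -0.17. It also left 337 genes called higher and 3029 called lower, against 1490 and 1453 in the authors' scaling. With it 5 members were called higher (Serpina3k, Serpina1e, Serpina1d, Serpina1c and Serpina3m), against 2.4% of all genes, and with quantile normalization 4, the same less Serpina1e, against 7.26%. The count was also 5 without WT WD liver 1, where Serpina1e, Serpina1b and Serpina6 were lost and 3.98% of genes were called higher. Without the livers that held pancreas or muscle transcripts it was 4, against 6.16%.

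**Figure D3:**
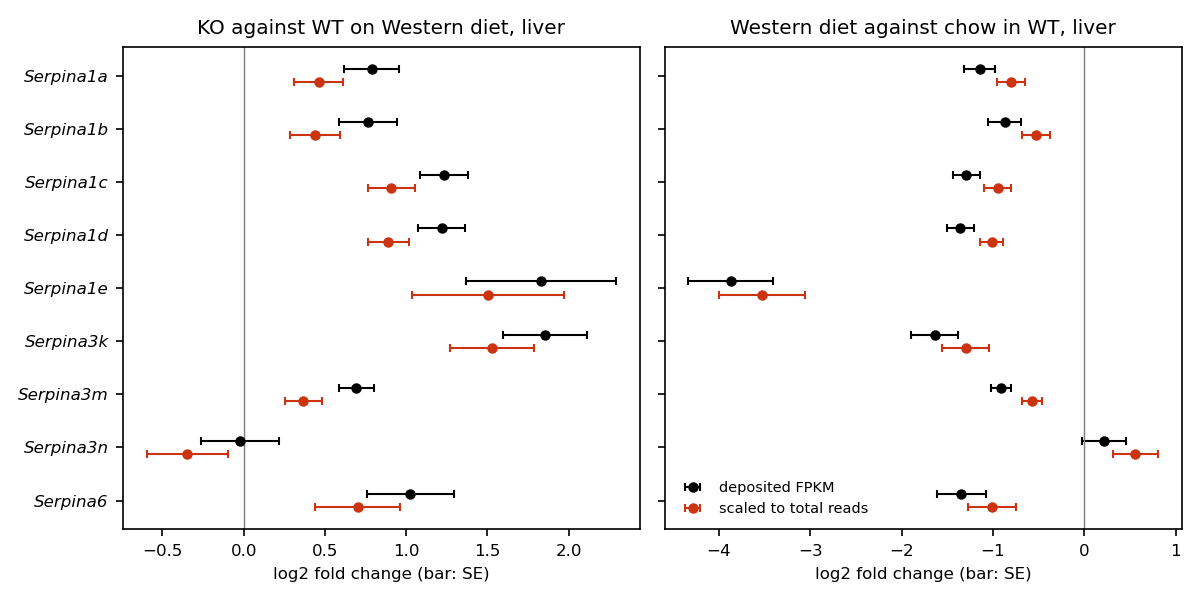
Log2 fold change (points) with its standard error (bars) of each gene in liver, for the KO label over the WT label on WD and for WD over chow under the WT label, in the authors' scaling and scaled to total reads. Serpina3k and Serpina1e lie farthest from 0 in both contrasts, Serpina3n lies apart from the other 8, and total-read scaling shifts every gene the same way within a contrast.

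For WD against chow under the WT label, which shares the WD livers labelled WT with the contrast above, 8 members stood lower and were called lower, against 9.49% of all genes. The same 8 had all WD livers below all chow livers, as did 19.2% of all genes. The log2 fold change was -3.87 for Serpina1e, -1.64 for Serpina3k, -1.36 for Serpina1d, -1.35 for Serpina6 and -1.29 for Serpina1c. It was -1.14 for Serpina1a, -0.91 for Serpina3m, -0.87 for Serpina1b and 0.22 for Serpina3n. The median was -1.29 over the members and -0.05 over all genes. Scaled to total reads the values ran from -3.53 for Serpina1e to -0.53 for Serpina1b, with Serpina3n at 0.56, while the median of all genes moved to 0.20. Leaving out any single liver kept the count at 8, and quantile normalization left 6, against 6.76% of all genes called lower. Without the 4 livers with pancreas or muscle transcripts 6 were called lower as well, against 2.2%, and Serpina1b and Serpina6 were lost.

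Under the KO label the diet contrast was smaller in size for each member than under the WT label. In the authors' scaling all 9 values were below 0, from -1.58 for Serpina1e and -0.53 for Serpina3m to -0.04 for Serpina6 and -0.00 for Serpina3n, and Serpina3k stood at -0.17. Scaled to total reads, Serpina6 stood at 0.02 and Serpina3n at 0.06. With 1 liver left out, both reached up to 0.22. A set of 4 members (Serpina1b, Serpina1d, Serpina1e and Serpina3m) had all WD livers below all chow livers, where 12.5% of all genes did. Limma called none of the 9 against 0.421% of all genes, with 2 at an unadjusted p under 0.05 (1 without the 4 livers), where 15.4% of genes were. edgeR called none, and DESeq2 called Serpina1e and Serpina3m against 5.02% of the genes it tested. The genotype by diet interaction is the KO-WT difference on WD less that on chow. It contains the WD contrast that was in view when the members were chosen, so it too is a description. It was positive for 8 members, from 0.38 ± 0.15 (SE) for Serpina3m to 2.29 ± 0.65 for Serpina1e, and -0.22 ± 0.34 for Serpina3n. Limma called none of them against 0.549% of all genes, although 8 had an unadjusted p under 0.05, where 16.4% of genes did. edgeR called none with 7 under 0.05, and DESeq2 called 6 against 3.85% of the genes it tested. Without WT chow liver 2 the limma count became 3, against 2.0% of genes, and without WT WD liver 2 it became 2, against 2.29%.

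Markers of hepatocytes, the cells that make most of these serpins, moved with the same contrasts. Of the 19 tested, 12 rose and 0 fell for the KO label over the WT label on WD (median log2 0.70), and 0 rose and 13 fell for WD over chow under the WT label (median -0.82). Their summed level was 34827 to 39522 FPKM in WT chow livers, 38174 to 41402 in KO chow livers, 21081 to 24542 in WD livers labelled WT and 35274 to 37381 in those labelled KO, and none was at 0. Macrophage markers went the other way: 12 of 16 fell under the KO label on WD, and their sum was 766 to 1812 FPKM under the WT label, 286 to 402 under the KO label and 260 to 566 on chow. Stellate and fibroblast markers summed to 146 to 232 FPKM under the WT label and 54.5 to 59.5 under the KO label, and 8 of 11 fell. Their part in the serpin values was not tested. In bulk tissue, fewer cells of a type and less RNA per cell cannot be told apart.

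Set against the summed hepatocyte markers of the same liver, a ratio free of library scaling that was chosen after the values were seen, the members divided into 3 sets. Serpina3k stood at 4.07%, 6.14% and 5.94% of that sum in WD livers labelled WT and at 15.0%, 9.40% and 11.6% in those labelled KO, with chow means of 10.1% ± 3.18 (SD, n = 3) in WT and 12.3% ± 1.93 in KO. Serpina1c (1.58% ± 0.144 against 2.30% ± 0.332) and Serpina1d (3.25% ± 0.190 against 4.67% ± 0.610) also stayed apart between the labels. Serpina6 did so only narrowly, with 0.480% as the highest liver labelled WT and 0.483% as the lowest labelled KO. The labels overlapped for Serpina1a, Serpina1b, Serpina1e and Serpina3m, of which Serpina3m read 0.615% ± 0.0250 and 0.613% ± 0.0333. Serpina3n lay the other way, at 1.26% ± 0.263 under the WT label and 0.751% ± 0.0669 under the KO label, with no overlap. The Serpina1 sum was 15.8% ± 2.10 and 20.9% ± 3.91 on WD, against 35.1% ± 9.39 in WT and 29.3% ± 3.96 in KO livers on chow. The 3 sets depended on the denominator. As percent of Alb, the albumin gene, Serpina1a on WD stood at 2.66% to 4.53% under the WT label and 4.71% to 8.02% under the KO label. Serpina1b (4.88% to 9.40% against 9.91% to 15.2%) and Serpina3m (0.606% to 0.921% against 0.983% to 1.34%) did not overlap either. Serpina3n did, at 1.14% to 2.125% and 1.06% to 1.75%, as did Serpina1e. Serpina3k, Serpina1c, Serpina1d and Serpina6 stayed apart with both.

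**Figure D4:**
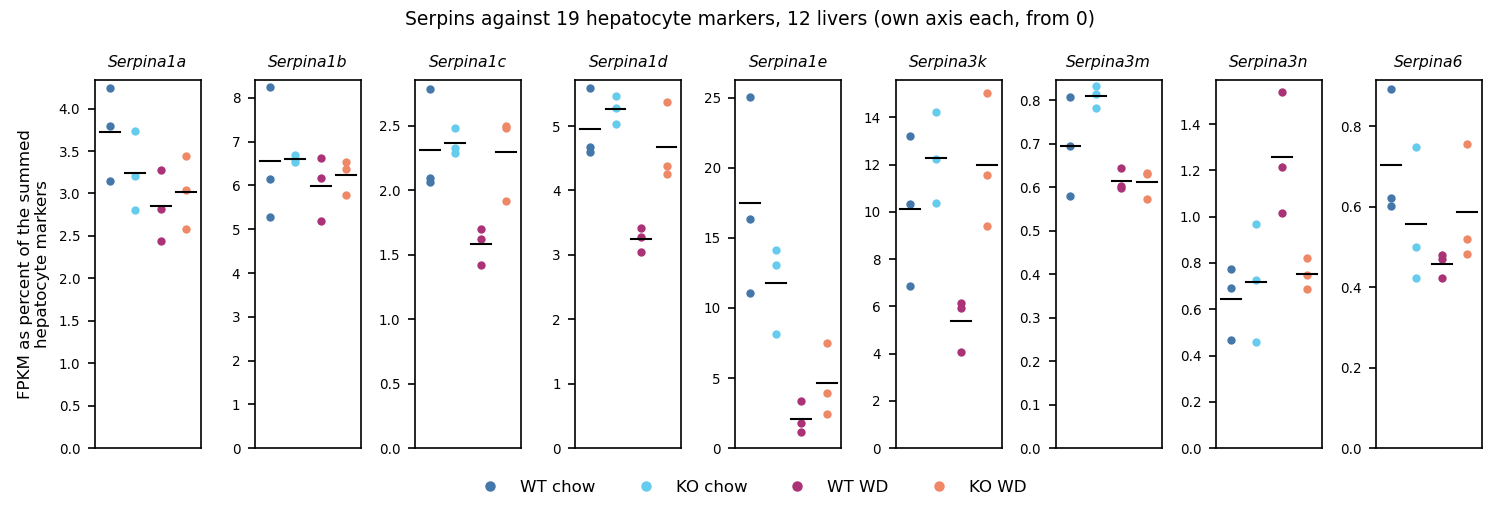
Level of each gene as percent of the summed FPKM of 19 hepatocyte markers in the same liver, by group, each gene on its own axis from 0. Points are single livers and bars are means of 3. Serpina3k separates the labels on WD (4.07% to 6.14% against 9.40% to 15.0%), Serpina3m does not, and Serpina3n is higher under the WT label.

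Across the 12 livers the members went together in the same 2 camps, a description over libraries that share 4 groups. Pearson's r of log2(FPKM + 1) was 0.807 to 0.962 between Serpina1 paralogs, some of whose reads fit several copies, and 0.972 between Serpina1c and Serpina3k. Serpina6 correlated with the others except Serpina3n at 0.649 to 0.802. Serpina3n correlated with the other 8 at -0.434 to 0.017. Among 6071 genes with a mean of at least 5 FPKM, those most like the Serpina1 sum were Trabd (r = 0.964), Proz (0.960), which encodes the plasma protein Z, and Hsd17b7 (0.958), an enzyme of cholesterol synthesis. Serpina3k ran most like Acadsb (0.958), of branched-chain amino acid breakdown, Cct6a (0.958) and Dnaja3 (0.948). Serpina3m ran most like Ndufs6 (0.957), Gpr155 (0.954) and Nfu1 (0.948), and Serpina6 most like Anpep (0.949), Fdx1 (0.937) and Apol7a (0.935). For Serpina3n the most alike were Lrg1 (0.802), an acute phase glycoprotein, Ptprj (0.772) and Myd88 (0.761), an adaptor of innate immune receptors.

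Promoters were searched for the 6 members that RefSeq's table on GRCm38.p6 holds, the 5 Serpina1 genes and Serpina3n, since the Serpina1 paralogs moved together and Serpina3n did not. The window was the 250 bases before the start, read on both strands, and matches of different motifs were counted apart even where they overlapped. AGAACA, part of the glucocorticoid receptor motif, was present in all 6 and in 16.1% of 32851 promoters. TTNNGNAA, for C/EBP factors, was in Serpina1b, Serpina1d, Serpina1e and Serpina3n and in 36.8% of promoters. TTCNNNGAA, for STAT factors, and CTGGGAA, the interleukin 6 response element, were in none of the 6, and in 7.0% and 9.1% of promoters. Compared window by window, Serpina1a to Serpina1d shared 84.3% to 91.0% of these upstream bases, and Serpina1e shared 58.0% to 64.2% with them. The Serpina1e window was shifted against the others. Bases that lay close to the annotated start in Serpina1a to Serpina1d lay farther upstream in Serpina1e. Its lower share therefore cannot separate a different promoter sequence from a shifted start. Because of the shared bases, matches in the Serpina1 promoters are not independent of each other. A match here is a description of letters only.

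Regulators and pathways known to act on these genes were read from lists, whose counts stand beside 10.6% of all liver genes called higher and 10.4% called lower under the KO label on WD, and 9.72% and 9.49% for WD over chow under the WT label. The first list covers hepatocyte transcription factors. Cebpa, which encodes a C/EBP factor, rose under the KO label on WD (log2 0.64 ± 0.19, limma adjusted p = 0.0365). The call of Cebpa was lost without any 1 of the 6 WD livers, with an adjusted p from 0.0531 to 0.126. For WD over chow under the WT label, 0 of 11 factors tested rose and 2 fell, Foxa3 by 0.95 (adjusted p = 0.0155) and Nr1h4, the bile acid receptor FXR, by 0.62 (adjusted p = 0.0224). Foxa3 lost its call without WT chow liver 3 (adjusted p = 0.0534), and Nr1h4 without any liver of the contrast but WT chow liver 1, with an adjusted p up to 0.077.

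The growth hormone and STAT5 axis, which sets male-type liver expression in mice, held the 2 genes with the smallest adjusted p of all lists named here. Of its 14 tested genes 8 rose and 0 fell under the KO label on WD (median log2 0.92), and 1 rose and 6 fell for WD over chow under the WT label (median -0.83). Hsd3b5, a steroid dehydrogenase that marks male liver, rose by 6.57 ± 0.43 (adjusted p = 3.51e-05) and Slco1a1, an organic anion transporter, by 3.66 ± 0.21 (adjusted p = 1.43e-05). Cyp7b1 rose by 2.13 ± 0.29 and Igfals, the acid-labile subunit that carries IGF1, by 1.25 ± 0.17. On WD under the WT label, Hsd3b5 fell by 5.35, Slco1a1 by 2.54, Igfals by 0.92 and the receptor gene Ghr by 0.81. The 2 contrasts share the WD livers labelled WT.

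Serpina6 carries the hormone that the glucocorticoid list is about. Of its 13 tested genes 4 rose and 1 fell under the KO label on WD (median log2 0.43), and 0 rose and 5 fell for WD over chow under the WT label (median -0.75). Srd5a1, which reduces steroids, rose by 0.85 ± 0.12 (adjusted p = 0.00198) and Pck1, the gluconeogenic enzyme and a glucocorticoid target, by 1.31 ± 0.27 (adjusted p = 0.00868). Hsd11b1, which regenerates active glucocorticoid, rose by 0.75 ± 0.17 (adjusted p = 0.0131), and Akr1d1 by 0.72 ± 0.18. On WD under the WT label, Pck1 fell by 1.74, Hsd11b1 by 0.98, Tat by 1.46 and Akr1d1 by 0.74. Akr1d1 lost its call between the labels without KO WD liver 2 or 3 or WT WD liver 3 (adjusted p up to 0.0679), and between the diets without WT chow liver 3 or WT WD liver 3 (up to 0.0647). Tat lost its call without WT chow liver 2 or 3 or WT WD liver 1 or 3 (up to 0.104).

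Alpha-1-antitrypsin is folded and exported through the endoplasmic reticulum. Of 25 chaperones and export or degradation genes tested there, 3 rose and 0 fell under the KO label on WD (median log2 0.18), and 0 rose and 3 fell for WD over chow under the WT label (median -0.16). Both counts are near the share of all genes. Lman1, a cargo receptor that exports secreted glycoproteins including alpha-1-antitrypsin, rose by 0.70 ± 0.11 (adjusted p = 0.00317) and fell by 0.66 on WD under the WT label (adjusted p = 0.00348). Os9 (0.51 ± 0.12) and Edem1 (0.46 ± 0.14), both of which act in degradation of misfolded proteins, also rose. Edem1 lost its call without any 1 of the 6 livers (adjusted p up to 0.141), and Os9 without KO WD liver 1 or 2 or WT WD liver 1 (up to 0.0673).

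Acute phase genes moved in both directions. Of 24 tested, 2 rose and 1 fell under the KO label on WD (median log2 0.10), and 1 rose and 3 fell for WD over chow under the WT label (median -0.27). Ttr, the thyroxine carrier that falls in an acute phase, rose by 0.80 ± 0.17 (adjusted p = 0.00916) and Mug1, a murinoglobulin, by 0.81 ± 0.17 (adjusted p = 0.00993). Lcn2 fell by 3.98 ± 0.90 (adjusted p = 0.0133), and lost its call without KO WD liver 1 or WT WD liver 1 (up to 0.0589). On WD under the WT label, Ttr fell by 1.04 and Alb, albumin, by 1.26, while Lcn2 rose by 2.97 (adjusted p = 0.0429), a call that ended without any liver of the contrast but WT chow liver 2 (up to 0.144). Ambp fell by 0.56 and stood at 0.02 with quantile normalization, and its call ended without WT chow liver 1 or 3 or WT WD liver 1 or 2 (up to 0.0746). Of 13 genes of the interleukin 6 and STAT3 pathway, 2 rose and 2 fell under the KO label: the receptor gene Lifr rose by 1.62 ± 0.25 (adjusted p = 0.00333) and Osmr, the oncostatin M receptor, fell by 0.89 ± 0.16 (adjusted p = 0.0053). Both moved the opposite way for WD over chow under the WT label, by -1.32 and 0.86.

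Other serpins were called in both directions or not at all. Of 16 other clade A genes 6 passed the level filter, and under the KO label on WD 0 were called by limma in either direction (median log2 -0.55), with Serpina7, thyroxine-binding globulin, at -0.89 ± 0.33 (adjusted p = 0.0773) and Serpina3g at -1.32 ± 0.51 (adjusted p = 0.0924). On WD under the WT label, Serpina7 rose by 1.62 ± 0.33 (adjusted p = 0.00829) and Serpina11 fell by 0.63 (adjusted p = 0.0299), a call lost without any liver of the contrast but WT chow liver 3 (up to 0.0816). Of 13 serpins of other clades, 2 rose and 5 fell under the KO label on WD. Serpinb6b fell by 1.81 ± 0.18 (adjusted p = 0.000483), Serpinh1, the collagen chaperone HSP47, by 1.55 and Serpinb9, an inhibitor of granzyme B, by 0.60, whereas Serpinf1 rose by 0.78 ± 0.10. A list of proteases, not all of which serpins inhibit, had 9 tested genes. Of these Mmp12, the macrophage elastase and a metalloprotease, fell by 3.36 ± 0.40 (adjusted p = 0.0012), and plasma kallikrein Klkb1 rose by 0.81 ± 0.18 (adjusted p = 0.0112). Plasminogen, Plg, rose by 0.65 ± 0.16 (adjusted p = 0.0185), which was lost without KO WD liver 1 or WT WD liver 1 or 3 (up to 0.0747).

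In iWAT the order was turned around. Serpina3n was the only abundant member, at 45.5 to 162 FPKM with rank 323 among all genes, and the other 8 lay at or below 3.76 FPKM in each library. It held 106, 86.1 and 45.5 FPKM in WT and 95.6, 80.5 and 53.4 FPKM in KO chow iWAT. On WD it held 87.7, 125 and 162 FPKM in WT and 48.4, 65.6 and 125 FPKM in KO iWAT. The WD groups overlapped, and KO over WT came to -0.71 ± 0.41 (log2, SE, limma adjusted p = 0.394). Between the diets in WT it was 0.69 ± 0.41 (adjusted p = 0.361).

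In all 6 members passed the filter of a mean of 0.5 FPKM in iWAT (Serpina1a, Serpina1b, Serpina1e, Serpina3k, Serpina3m and Serpina3n). Serpina1c and Serpina1d stayed under it, at 0.195 to 0.681 and 0.197 to 0.873 FPKM, and Serpina6 was listed at 0 in 6 of 12 libraries with at most 9 reads in any. On chow limma called none of the 6 between genotypes, against 0.0% of 14685 genes, with none at an unadjusted p under 0.05 by limma, edgeR or DESeq2. Between diets it called none in WT, against 2.12% of genes (none under 0.05, and Serpina1e under 0.05 by edgeR and DESeq2, uncalled by either). In KO it also called none, against 0.0% of genes, with Serpina1a under 0.05 by all 3 tools. The interaction gave none either, against 0.0% of genes, with Serpina1a under 0.05 by limma only (0.75 ± 0.32, adjusted p = 0.703).

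Serpina1a was the 1 member called higher in KO than WT iWAT on WD, where 3.2% of genes were. WT iWAT held 1.29, 1.01 and 0.325 FPKM of it (54, 42 and 13 reads) and KO iWAT held 2.27, 3.19 and 2.32 FPKM (80, 120 and 97 reads). The log2 fold change was 0.97 ± 0.23 (SE, adjusted p = 0.0461). The call was lost without any 1 of the 6 libraries, where the log2 fold change was 0.735 to 1.13 with an adjusted p from 0.0512 to 0.163. It was also lost with a pseudocount of 0.1 (0.078), no filter (0.101), edgeR (0.0995) or total-read scaling (0.0543). DESeq2 kept it (log2 1.59, adjusted p = 0.0213), as did median-of-ratios scaling (0.0431), quantile normalization (0.0435) and the replicate block (0.0441). Serpina1b (0.59 ± 0.27, adjusted p = 0.283) and Serpina1e (0.86 ± 0.45, adjusted p = 0.343) were not called, and with Serpina1a they were the 3 of 6 members whose KO libraries all lay above the WT libraries, an order that 12.7% of genes showed. The authors' deposited table gives 1.59 for Serpina1a (adjusted p = 0.0246), 1.46 for Serpina1b (adjusted p = 0.0754) and 2.17 for Serpina1e (adjusted p = 0.0311).

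Markers of other cells in these iWAT libraries were as follows. Of 19 hepatocyte markers 10 passed the filter, and on WD 1 rose in KO over WT and 0 fell (median log2 0.24, beside -0.03 over all genes). The 19 summed to 263 to 290 FPKM in WT and 453 to 571 FPKM in KO on WD, where 1 of them was at 0 in 1 WT library. On chow they summed to 1072 to 1474 FPKM. Serpina1a stood at 0.780 FPKM by mean in WT and 1.10 FPKM in KO on chow. Alb stood at 10.7 to 15.9 FPKM in WT and 12.8 to 21.4 in KO on WD, and Apoa1 at 0.568 to 0.705 and 0.710 to 1.35 FPKM. Skeletal muscle markers summed to 4751 FPKM in WT WD iWAT 1 and 1443 FPKM in KO WD iWAT 1, against 29.3 to 374 FPKM in the other 4. Red cell markers summed to 1800.0 to 7727 FPKM in WT and 691 to 1805 FPKM in KO. Their part in the Serpina1a value was not tested. The Serpina1 sum in iWAT was 3.07, 2.08 and 1.56 FPKM in WT and 6.03, 7.90 and 4.77 FPKM in KO on WD.

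**Figure D5:**
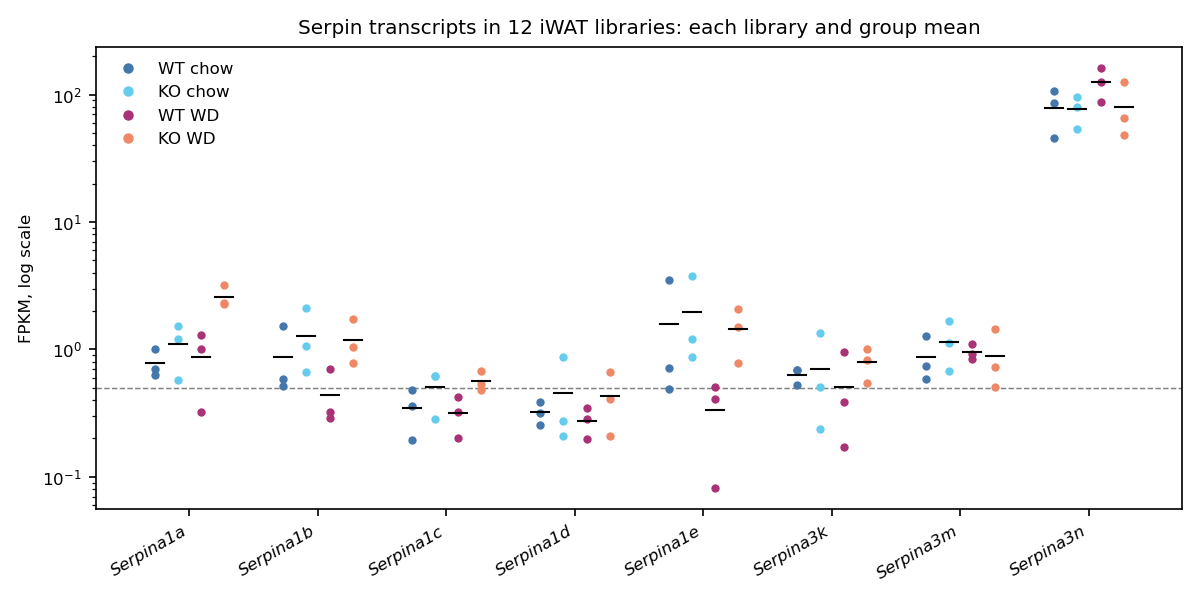
Level in iWAT of the 8 genes other than Serpina6, which is listed at 0 in several libraries, in FPKM on a log axis with points for single libraries and bars for means of 3. The dashed line is the filter at a mean of 0.5 FPKM. Serpina3n lies at 45.5 to 162 FPKM, the others at or below 3.76 FPKM.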

How the data were processed

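Liver and iWAT of WT and KO mice on chow or WD were sequenced from poly-T captured RNA, read from both ends. HISAT2 2.0.5, DESeq2 1.20.0 and mm10 are named in the submitters' processing notes without their roles. The authors deposited FPKM per gene and library, per the file headers, beside gene lengths. Tables of KO against WT hold the authors' read counts for listed genes, with their log2 fold change and their p-value and adjusted p-value, per the file headers. Another 32 columns of values per library or group were not used. FPKM times gene length and 1 constant per library gave whole reads within 0.01 for all 540911 values above 0 (100%), and 64434 of 64434 comparable deposited counts were equal to them. The constant was not the read total, so the deposited values carry a factor per library.

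Each tissue's 4 groups were fitted together with limma 3.58.1 (R 4.3.3) on log2(FPKM + 1), using a robust prior and a trend of variance with level, over genes with a mean of at least 0.5 FPKM (14019 in liver, 14685 in iWAT). Fold changes of low genes are shrunk by the pseudocount. A call is a Benjamini-Hochberg adjusted p under 0.05. edgeR 4.0.16 and DESeq2 1.42.0 were run on the recovered reads. The limma fit was checked on simulated liver counts for the KO-WT contrast on WD only. These had the same spread for all genes and no shift of library factor between groups, unlike the data. Tables and plots used Python 3.11.15, pandas 2.3.3, numpy 2.4.6, matplotlib 3.10.9 and Biopython 1.88. Alternatives were the pseudocount, the filter, the tool, the scaling, a replicate block, and each library left out. The members and lists were chosen with earlier results of these data known. Named were all 9 members, Mrs2, up to 4 called genes of each list by adjusted p (up to 2 where none was called), and the 3 genes most correlated with the Serpina1 sum and with each other member. Among the list genes under this rule, those whose values are not printed are left to the counts.

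Replicates are separate mice, per the series' design. The labels give no pairing, and the main fits used none. Between the chow iWAT groups alone, all 3 residual correlations of equal-numbered libraries exceeded 0.1 (0.127 to 0.407). Pairing by number entered only as the alternative with a replicate block. Promoters are RefSeq's, on GRCm38.p6. Some list and motif results are not reported here.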

Additional observations from a re-analysis of the deposited data

How the results depend on the processing

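In liver, the members called for the KO label over the WT label on WD numbered 8, and 5 with total-read scaling, 4 with quantile normalization, 4 without the 4 livers that held pancreas or muscle transcripts (chosen after seeing the data), and 5 to 8 with 1 library left out. For WD over chow under the WT label it was 8, and 6 with quantile normalization or without the 4 livers. For WD over chow under the KO label it was 0, and 2 with DESeq2. For the interaction it was 0, and 6 with DESeq2 and 0 to 3 with 1 library left out. In iWAT the count for KO over WT on WD was 1, and 0 with a pseudocount of 0.1, no filter, edgeR, total-read scaling, or any library left out, and 0 with a 5 FPKM filter, which left 1 member tested and removed Serpina1a. With a replicate block, which treats same-numbered libraries as paired, the counts were 0, 8, 8, 0 and 0 in liver and 0, 1, 0, 0 and 0 in iWAT, so the block changed no count. The log2 ratio of the Serpina1 sum for the KO label over the WT label on WD was 1.10, and 0.78 with total-read scaling and 0.47 with quantile normalization. For WD over chow under the WT label it was -1.91, and -1.56 and -1.36 with these. On chow it was -0.193, with a range of -0.33 to 0.064 when 1 library was left out, the latter without WT chow liver 1. The causes were not tested, apart from the scaling itself. Of 774 alternative fold changes of single members in liver, 724 stayed within 1 SD between replicates and 50 moved further. Most of these alternatives could hardly move genes this abundant, so the count of 724 says little about stability. The pseudocount, the filters and the replicate block each kept all 45 values. Leaving out 1 of 3 livers can shift a group mean by only a part of that group's SD. The moves were concentrated in the scaling: quantile normalization moved 23 and kept 22, and total-read scaling moved 20 and kept 25. Leaving out the 4 livers moved 7 and kept 38. Depth limits iWAT, where Serpina1 genes had 3 to 180 reads per library.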
